A study of Mus musculus with 16 samples.

Results

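The 9 genes described here code for the core scaffold proteins of the postsynaptic density: Dlg4, Shank1, Shank2, Shank3, Dlgap1, Dlgap2, Dlgap3, Dlgap4 and Homer1. They were chosen by name, as synaptic mRNAs known to be bound by FMRP, and are 9 of the 20436 genes listed in the gene table of every library. All 9 passed the filter on low counts in both assays. The question was how the RNA level and the ribosome footprint level of these genes differ when Fmr1, Cpeb1 or both are lost.

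The tissue was cerebral cortex, both hemispheres, of mice at postnatal day 28 to 35. The wild type (WT), the Fmr1 knockout (Fmr1 KO), the Cpeb1 knockout (Cpeb1 KO) and the knockout of both genes (double KO) all carry the strain background label FVB.129P2-/Pde6b+ Tyrc-ch //AntJ, and no treatment is given for any group. The labels call the genotypes knockouts and name no Cre driver or further allele. Cytoplasmic lysate was divided between ribosome profiling, which sequences the mRNA fragments protected by ribosomes, and RNA-seq of rRNA-depleted RNA cut to fragments of 50 to 60 nt. Each genotype has 2 libraries per assay, 8 in RNA-seq and 8 in ribosome profiling, named library 1 and library 2 below after the number in the labels. The labels do not say that these are separate animals, so p-values measure the spread between these libraries, which may be technical.

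At an excitatory synapse the postsynaptic density is a protein layer under the membrane that holds glutamate receptors in place. PSD-95, the product of Dlg4, sits next to the membrane and binds receptors. The SAPAP proteins, from the Dlgap genes, bind PSD-95 and link it to the SHANK proteins, and SHANK proteins bind Homer, which also binds group I metabotropic glutamate receptors. FMRP, the product of Fmr1, is an RNA-binding protein best known for repressing translation, and CPEB1, the product of Cpeb1, binds an element in the 3′ end of mRNAs and regulates poly(A) tail length and translation.

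Positions are those of RefSeq on assembly GRCm38.p6, the mouse assembly that mm10, named in the submitters' processing notes, corresponds to. Dlg4 (NCBI gene 13385) lies at chr11:70017203-70045535. The SHANK genes are Shank1 (243961) at chr7:44308916-44360094, Shank2 (210274) at chr7:143978077-144426043 and Shank3 (58234) at chr15:89493013-89560261. The SAPAP genes are Dlgap1 (224997) at chr17:69969073-70821413, Dlgap2 (244310) at chr8:14095776-14853426, Dlgap3 (242667) at chr4:127168305-127237022 and Dlgap4 (228836) at chr2:156613633-156764363. Homer1 (26556) lies at chr13:93303757-93405129.

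RNA-seq libraries held 5423919 to 10246479 rounded counts and footprint libraries 16239479 to 24973462. A scaffold gene had 659 to 7092 counts in an RNA-seq library and 974 to 7795 in a footprint library, so the values of the 9 genes do not rest on few reads. Levels are given as CPM, that is counts divided by a TMM-scaled library size, which compare libraries for the same gene. The knockout labels matched the levels of the targeted genes. Fmr1 RNA was at 18.4 to 25.9 CPM in the 4 libraries that lack Fmr1 by label and at 87.0 to 116 CPM in the other 4, and Cpeb1 RNA at 16 to 19.7 against 27.6 to 43.9 CPM. Markers of cortical excitatory neurons were present in every library, with a summed level of 2065 to 3038 CPM in RNA for 5 genes. Summed RNA markers of cerebellum reached at most 8.79 CPM, with Gabra6 and Cbln3 at 0 in some libraries. Markers of striatum (6 genes, 225.3 to 572.4 CPM) and choroid plexus (4 genes, 17.2 to 239 CPM) were also present in RNA, and the libraries differed in them.

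In WT cortex the scaffold genes differed widely in level and in how many footprints they had per RNA. On the length-corrected TPM scale, the mean RNA level of the 2 WT libraries ran from 486 TPM for Dlg4 through 399 for Homer1, 266 for Dlgap1, 148 for Dlgap3, 140 for Shank1, 108 for Dlgap4, 70.4 for Dlgap2 and 53.5 for Shank2 to 52.3 for Shank3. The neighbours Dlg4 and Homer1, Dlgap3 and Shank1, and Shank2 and Shank3 overlapped between libraries in this order. Footprint TPM had another order: Homer1 was highest at 190 TPM, followed by Dlgap1 at 144, Dlg4 at 125, Dlgap4 at 106, Dlgap2 at 44.0, Dlgap3 at 21.9, Shank2 at 17.7 and Shank3 at 12.2, with Shank1 lowest at 7.71. No neighbours overlapped in this second order. The RNA levels spanned 9.29-fold and the footprint levels 24.7-fold.

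The ratio of footprint TPM to RNA TPM measures ribosome footprints per RNA. Shank1, which codes for the largest of these scaffolds, had a ratio of 0.0505 and 0.0606 in WT libraries 1 and 2. Only 0.399% of the 13020 genes compared had a lower geometric mean ratio. Dlgap3, the SAPAP known for its role in cortico-striatal circuits, had 0.154 and 0.141, with 3.41% of genes lower. The ratio was 0.223 and 0.243 for Shank3 and 0.291 and 0.228 for Dlg4, and the libraries of these genes overlapped. Shank2 stood at 0.322 and 0.340. Homer1 (0.546 and 0.423) and Dlgap1 (0.557 and 0.523) overlapped, Dlgap2 had 0.622 and 0.627, and Dlgap4 was highest at 1.05 and 0.928. The median over all genes was 0.647, and 8 of the 9 scaffold genes were below it. Within the SAPAP family alone, Dlgap3 and Dlgap4 thus lay at opposite ends of the order.

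**Figure D1:**
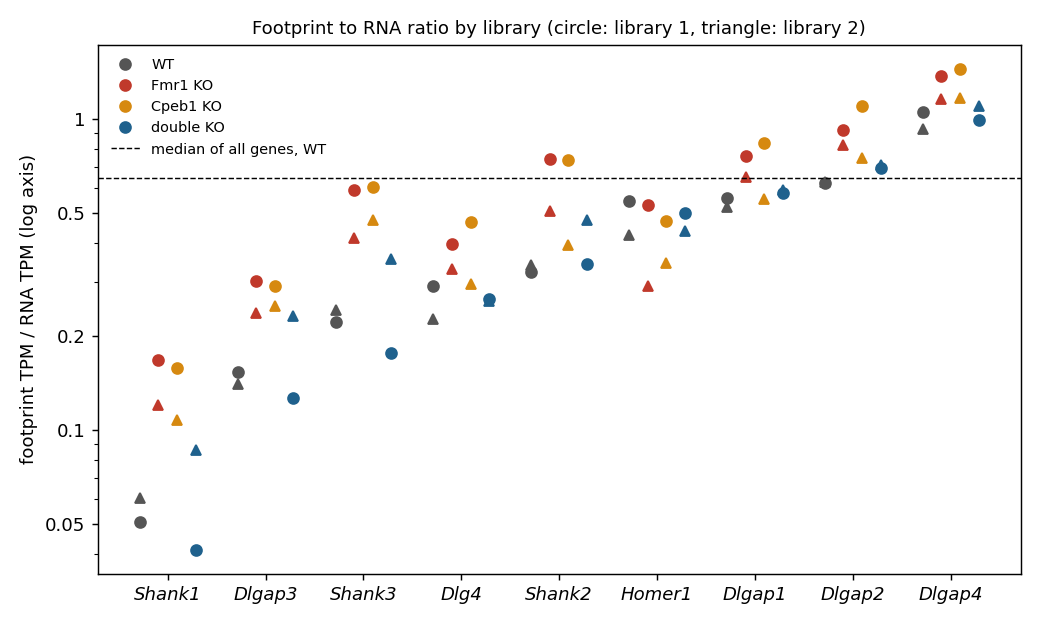
Ratio of footprint TPM to RNA TPM (log axis) for each scaffold gene, ordered by the WT mean, in every library; colours are genotypes, circles library 1, triangles library 2, and the dashed line is the WT median of all genes (0.647). Shank1 is lowest at 0.0505 and 0.0606 in WT and Dlgap4 highest at 1.05 and 0.928; for Shank1 all 4 libraries of the Fmr1 KO and the Cpeb1 KO (0.108 to 0.168) are above all 4 of WT and the double KO (0.0413 to 0.0862).

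The mean RNA level of 8 of the 9 scaffold genes was lower in the Fmr1 KO and in the Cpeb1 KO than in WT, and in the double KO it was within 0.29 of WT on the log2 scale. Homer1 had the opposite pattern. For the double KO against WT, 2 of the 9 genes had the same sign in libraries 1 as in libraries 2. The median log2 difference of the 9 was 0.24 in number 1 and -0.10 in number 2. Against WT and the double KO taken as 1 group, 5 genes fell in the single knockouts: Shank1, Shank3, Dlgap3, Shank2 and Dlg4. This comparison was taken because the authors deposited one of the same form, and it is the interaction of Fmr1 loss with Cpeb1 loss, expressed as a difference of group means. The test was edgeR's quasi-likelihood test with Benjamini-Hochberg adjustment over 13287 genes, and adjusted p under 0.05 counts as called. The model held the replicate number as a block, and without that term 0 genes were called. With the block, 274 of all genes were called in that comparison (2.06%), 236 of them lower (1.78%), against 5 of 9 scaffold genes. All 9 had an unadjusted p under 0.05, as did 23.4% of all genes. The median log2 change was -0.44 for the 9 genes and 0.03 for all genes.

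**Figure D2:**
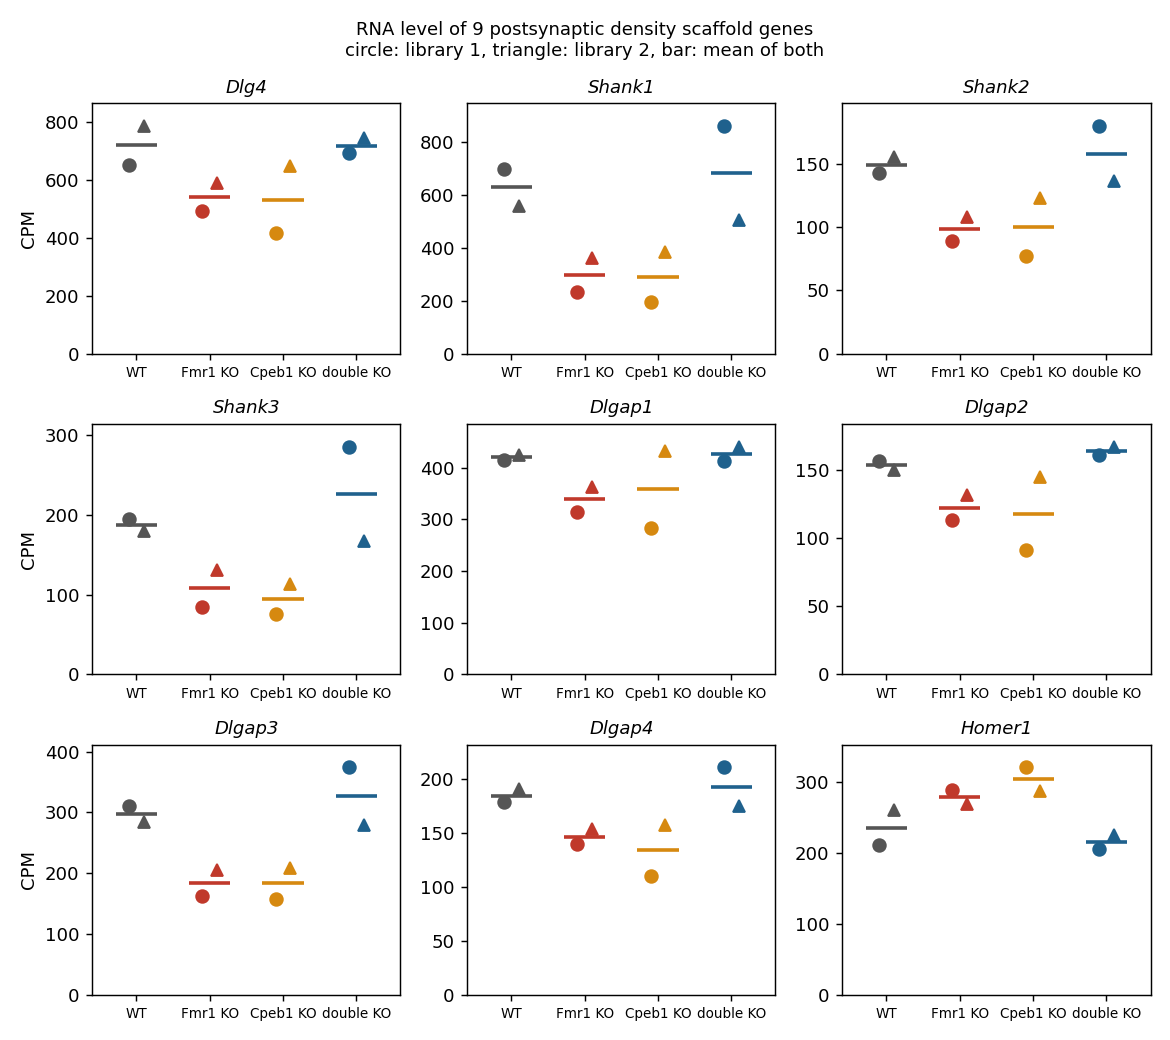
RNA level in CPM of the 9 scaffold genes in each of the 8 RNA-seq libraries, 1 panel per gene; circles are library 1, triangles library 2 and bars the mean of both. In 7 panels every Fmr1 KO and Cpeb1 KO library is below every WT and double KO library, in Dlgap1 they overlap, and in Homer1 the order is reversed.

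Dlg4 RNA, which codes for the receptor-binding scaffold PSD-95, was at 652 and 785 CPM in libraries 1 and 2 of WT, 492 and 588 in the Fmr1 KO, 415 and 648 in the Cpeb1 KO, and 691 and 745 in the double KO. The 4 single knockout libraries were all below the other 4, with Cpeb1 KO library 2 (648 CPM) close to WT library 1 (652 CPM). Its log2 change was -0.44 ± 0.09 (SE), 0.738 of the other group's level, with an edgeR adjusted p of 0.0416.

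The SHANK genes, whose products form the deeper layer of the density, included the genes with the largest changes, Shank1 and Shank3. Shank1 RNA stood at 696 and 559 CPM in the WT libraries, 232 and 360 in the Fmr1 KO, 196 and 383 in the Cpeb1 KO, and 858 and 505 in the double KO. The single knockouts lay well below the other libraries, and in each of these knockouts library 1 was the lower one. The log2 change was -1.19 ± 0.23 (edgeR adjusted p = 0.0405), or 0.439 of the other level. Shank3 RNA had 194 and 179 CPM in the WT libraries, 84.5 and 131 in the Fmr1 KO, 75.2 and 114 in the Cpeb1 KO, and 285 and 167 in the double KO. Library 1 of the double KO stood above every other library for Shank3. The change was -1.05 ± 0.19 (edgeR adjusted p = 0.0405). Shank2 RNA, which had the smallest change of the 3 SHANK genes, had 142 and 155 CPM in the WT libraries, 88.9 and 108 in the Fmr1 KO, 77.2 and 123 in the Cpeb1 KO, and 180 and 136 in the double KO. The groups again did not overlap, and the change was -0.65 ± 0.14 (edgeR adjusted p = 0.0436).

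Of the SAPAP genes, which bridge PSD-95 and SHANK, only Dlgap3 was called. Dlgap3 RNA measured 311 and 284 CPM in the WT libraries, 163 and 206 in the Fmr1 KO, 158 and 209 in the Cpeb1 KO, and 374 and 280 in the double KO. The highest single knockout library was 209 CPM and the lowest of the others 280, and the change was -0.77 ± 0.13 (edgeR adjusted p = 0.0385). Dlgap4 RNA ran from 110 to 157 CPM in the single knockouts and from 175 to 211 in the other libraries, with a change of -0.44 ± 0.11 that was not called (edgeR adjusted p = 0.0605). Dlgap2 RNA ran from 91.0 to 144 and from 150 to 167 CPM, with a change of -0.42 ± 0.11 (edgeR adjusted p = 0.0666). Dlgap1 was the one gene whose groups overlapped, since Cpeb1 KO library 2 (433 CPM) was above both WT libraries (414 and 425 CPM). Its change was -0.29 ± 0.10 (edgeR adjusted p = 0.113).

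Homer1, the adaptor between SHANK and metabotropic receptors, was at 211 and 261 CPM in WT, 289 and 270 in the Fmr1 KO, 321 and 288 in the Cpeb1 KO, and 205 and 226 in the double KO. Every single knockout library was above every other library, the opposite of the 7 genes that lay below. Its change was 0.38 ± 0.09 and was not called (edgeR adjusted p = 0.0573). Over all genes, 6.12% lay below without overlap in this way and 6.04% above, against 7 and 1 of the 9 scaffold genes.

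Promoters of genes with RNA values on either side of 0 can be set side by side. RefSeq promoters on GRCm38.p6 were found for 6 of the 9 genes, with 10 starts in all, and the 250 bases before the first listed start are shown for Shank3 and Dlgap3, which fell, and for Homer1, whose change was positive but not called. All are on the plus strand, at chr15:89499358-89499607, chr4:127172630-127172879 and chr13:93303507-93303756, and capitals mark the GC box GGGCGG and the core TGACG of the cAMP response element, each on either strand.
Shank3: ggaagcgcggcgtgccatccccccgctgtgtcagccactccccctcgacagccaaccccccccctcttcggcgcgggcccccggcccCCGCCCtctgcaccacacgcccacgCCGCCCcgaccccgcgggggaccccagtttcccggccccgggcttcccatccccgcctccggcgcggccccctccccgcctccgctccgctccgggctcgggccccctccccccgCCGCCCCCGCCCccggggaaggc
Dlgap3: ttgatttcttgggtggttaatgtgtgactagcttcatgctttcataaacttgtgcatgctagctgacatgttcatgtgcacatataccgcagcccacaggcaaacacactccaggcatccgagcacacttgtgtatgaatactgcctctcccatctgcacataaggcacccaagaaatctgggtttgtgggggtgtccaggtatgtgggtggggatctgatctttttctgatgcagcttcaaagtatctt
Homer1: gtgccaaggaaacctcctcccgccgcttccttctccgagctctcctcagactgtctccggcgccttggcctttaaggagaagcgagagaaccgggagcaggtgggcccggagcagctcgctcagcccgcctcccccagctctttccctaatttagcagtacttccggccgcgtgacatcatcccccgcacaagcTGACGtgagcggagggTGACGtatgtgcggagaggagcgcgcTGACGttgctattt
Homer1 has 3 matches to the core TGACG and none to the GC box, Shank3 has 4 GC boxes and no TGACG, and Dlgap3 has neither. The second Homer1 start has neither motif. Of the 3 Dlg4 starts, 2 have neither and 1 has both, with 1 match each, the Dlgap4 start has 2 GC boxes and no TGACG, and the 2 Dlgap1 starts have neither. Of 32851 promoters in the table, 17.8% hold TGACG and 32.7% the GC box in a window of the same length. The GC content of the windows was 82.4% for Shank3, 62.4% for Homer1 and 46.8% for Dlgap3, against a median of 52.4%, so the windows of Shank3 and Dlgap3, which both fell, had unlike base composition. The Shank3 and Dlgap3 windows lie inside the gene spans given above, whereas the Homer1 window ends next to the start of its gene. Unlike kinds of start are thus set side by side. A match is a description of the letters, not a site.

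The difference was larger between the libraries numbered 1 than between those numbered 2 for all 9 genes, with the same sign in both. For Shank1 the log2 difference was -1.85 in number 1 and -0.52 in number 2, for Shank3 -1.56 and -0.50, for Dlgap3 -1.09 and -0.44, and for Homer1 0.55 and 0.20. The median over the 9 genes was -0.64 and -0.31, and over all genes tested 0.04 and 0.01. RNA-seq libraries numbered 1 held 8365056 to 10246479 counts and those numbered 2 held 5423919 to 6528717; the part of this depth in the difference was not tested. The calls were lost, 0 of 9, when the replicate number was left out of the model, when either WT library, either Fmr1 KO library, Cpeb1 KO library 1 or double KO library 1 was left out. They rose to 9 of 9 without Cpeb1 KO library 2 (7.5% of all genes called) and to 8 without double KO library 2 (10.2%), and to 8 in DESeq2 and when the comparison was fitted as 2 pooled groups, where 4.0% and 7.31% of all genes were called.

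Cell type and region markers also differed in this RNA comparison. The summed RNA level of 5 excitatory neuron markers was 2065 to 2406 CPM in the single knockouts and 2408 to 3038 in the other libraries. Of the 5 only Camk2a was called (log2 change -0.45 in edgeR), beside 2.06% of all genes, and Neurod6 went the other way (0.25, not called). The sum of 5 astrocyte markers was 473.9 to 532.9 against 370.7 to 470.5 CPM, with 0 called. That of 6 striatal markers was 225.3 to 476.3 against 411.8 to 572.4 CPM, with Ppp1r1b called lower (-0.64). The low striatal sums were those of the Cpeb1 KO, at 225.3 to 329.8 CPM. The Fmr1 KO, at 393.8 to 476.3 CPM, overlapped WT, at 411.8 to 572.4 CPM. The part of these markers in the scaffold result was not tested. In these bulk samples, fewer cells of a type and less RNA per cell cannot be told apart.

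RNA changes also differed with the length of the counted feature. The median log2 change was 0.11 for features under 1000 nt and -0.09 for those of 4000 nt and more. The scaffold genes are mostly long: 97.8% of tested genes were shorter than Shank1, 95.9% than Shank3, 93.0% than Shank2 and 72.4% than Dlg4, whereas 23.2% were shorter than Homer1. Across the 9 genes, which share libraries, the RNA change and the length had a Spearman rho of -0.833. A correction for length set the medians of the length classes to between 0.01 and 0.02. Of the 9 genes 8 were then called, Homer1 higher and the others but Dlgap1 lower, beside 8.63% of all genes. The share of genes called still rose with length after the correction, from 4.67% under 1000 nt to 18.5% at 4000 nt and more. Before the correction it rose from 1.04% to 4.44%.

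Against WT alone, no scaffold gene was called in RNA in any knockout with edgeR. In the Fmr1 KO 6 of the 9 had an unadjusted p under 0.05 (8.09% of all genes), and 1 gene in all was called (0.00753%); DESeq2 called 0 of the 9. The log2 changes there were -1.11 for Shank1, -0.81 for Shank3, -0.70 for Dlgap3, -0.60 for Shank2 and 0.25 for Homer1. In the Cpeb1 KO 8 of the 9 had an unadjusted p under 0.05 (11.0% of all genes, with 0 genes called, 0.0%), and the changes were -1.14 for Shank1, -1.0 for Shank3, -0.70 for Dlgap3, -0.59 for Shank2 and 0.38 for Homer1. Both comparisons use the same WT libraries. In the double KO the 9 changes ran from -0.13 for Homer1 to 0.29 for Shank3, with 0 at an unadjusted p under 0.05 (4.23% of all genes), 1 gene called in all (0.00753%) and 0 of the 9 called in DESeq2. When only the libraries of a knockout and WT were fitted, 5 scaffold genes were called in the Fmr1 KO (2.78% of all genes) and 3 in the Cpeb1 KO (0.873%), where DESeq2 called 1 (0.339%).

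The authors' deposited tables, which per the submitters' processing notes and the file headers come from DESeq2, had more calls and smaller log2 changes. In the authors' deposited table of WT and the double KO against both single knockouts, all 9 scaffold genes had an adjusted p under 0.05, beside 9.09% of the 15086 genes listed. The deposited log2 changes, signed here as single knockouts minus the rest, ran from -0.62 for Dlgap3 and -0.61 for Shank1 to 0.29 for Homer1. DESeq2 as run here had a median log2 change of -0.45 for the 9 genes in that comparison, and edgeR -0.44. Why the deposited values are smaller was not tested. In the authors' deposited table for the Fmr1 KO only Dlgap3 was called of these genes (-0.50, beside 0.331% of genes listed), and in that for the Cpeb1 KO Dlgap3 (-0.50) and Dlg4 (-0.34, beside 0.961%).

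Against the double KO, the single knockouts had lower mean RNA for the 8 genes other than Homer1. The double KO minus the Fmr1 KO ran from -0.38 for Homer1 to 1.23 for Shank1 in RNA, and all 9 genes had an unadjusted p under 0.05 (15.7% of all genes). With edgeR 0 of 9 were called, beside 0.0% of all genes, and DESeq2 called 1 (0.248%), while the authors' deposited table called Dlg4, Shank2 and Dlgap3 (1.34% of genes listed). The double KO minus the Cpeb1 KO ran from -0.50 for Homer1 to 1.28 for Shank3, with 8 genes at an unadjusted p under 0.05 (19.2% of all genes), 0 called in edgeR (0.00753%) and 3 in DESeq2 (1.6%). In the authors' deposited table for the latter comparison 7 of the 9 were called, all but Shank1 and Dlgap1, beside 3.04% of genes listed.

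Ribosome footprints of the scaffold genes gave no call in the same comparison. For the single knockouts set against WT and the double KO, 0 of 9 scaffold genes were called in footprints with edgeR and 0 had an unadjusted p under 0.05, beside 9 called genes of 13774 (0.0653%) and 12.6% at an unadjusted p under 0.05. DESeq2 also called 0. The log2 changes ran from -0.08 for Dlgap3 to 0.20 for Homer1, with a median of -0.05 for the 9 genes and 0.00 for all. Shank3 had a footprint change of 0.00 ± 0.06 and Dlg4 of -0.01 ± 0.05.

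**Figure D3:**
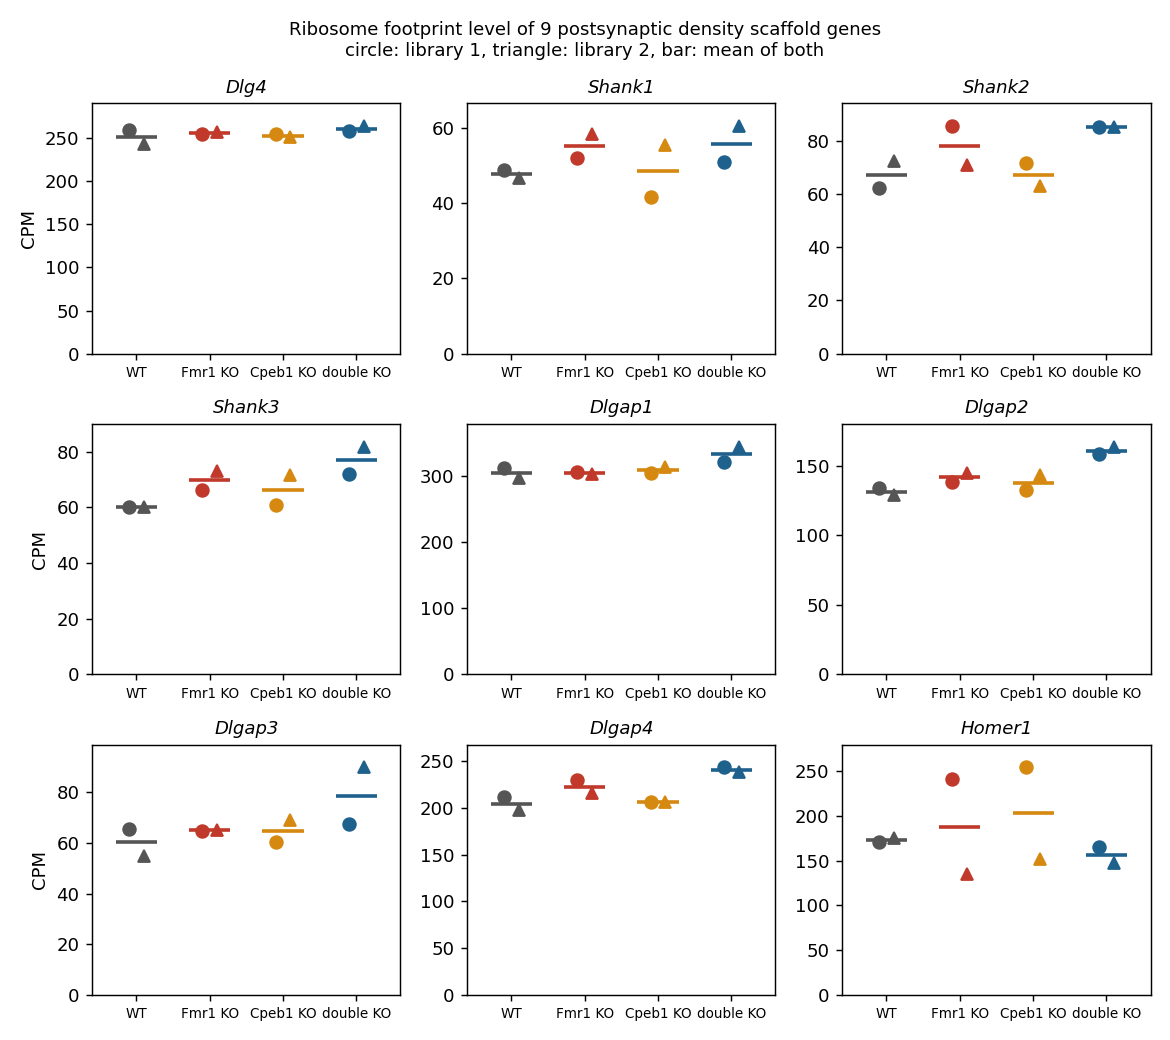
Footprint level in CPM of the 9 scaffold genes in each of the 8 footprint libraries, 1 panel per gene; circles are library 1, triangles library 2 and bars the mean of both. The single knockouts overlap WT and the double KO in every panel, and Homer1 is highest in library 1 of the Fmr1 KO and the Cpeb1 KO (241 and 254 CPM).

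Dlg4 footprints ran from 243 CPM in WT library 2 to 264 in double KO library 2. Shank1 footprints were at 48.8 and 46.7 CPM in WT, 51.9 and 58.3 in the Fmr1 KO, 41.5 and 55.3 in the Cpeb1 KO, and 50.8 and 60.4 in the double KO. The single knockouts, low in RNA, lay within the range of the other libraries here. Shank3 footprints were at 60.1 and 60.0 CPM in WT, 66.4 and 73.1 in the Fmr1 KO, 60.7 and 71.6 in the Cpeb1 KO, and 72.1 and 81.8 in the double KO. Both WT libraries were the lowest for Shank3 and double KO library 2 the highest. Homer1 footprints were at 171 and 175 CPM in WT, 241 and 135 in the Fmr1 KO, 254 and 152 in the Cpeb1 KO, and 165 and 147 in the double KO. For Homer1 the libraries of a single knockout differed by more than any genotype did from another.

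**Figure D4:**
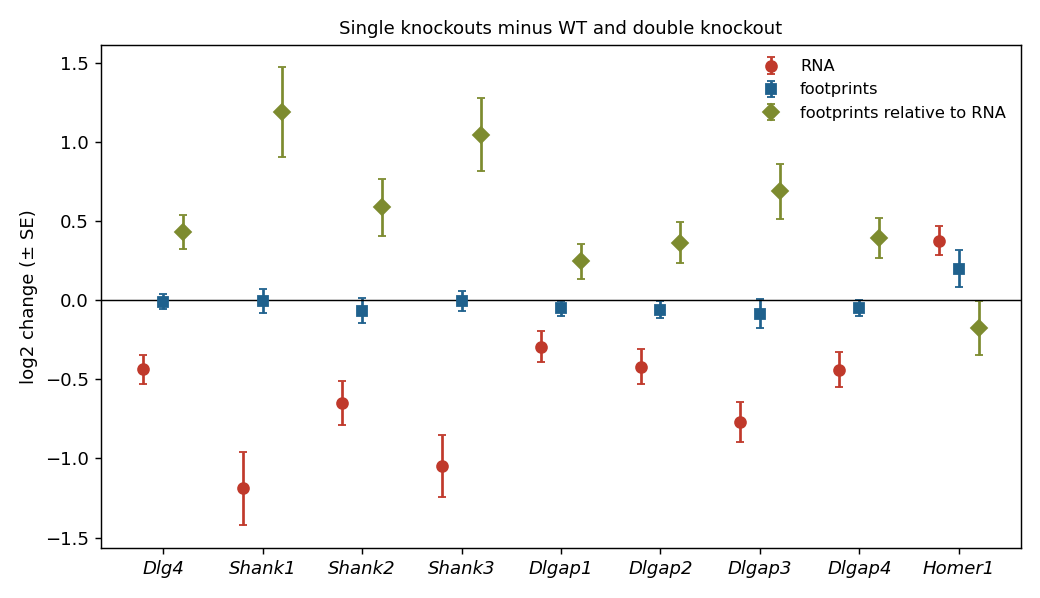
Log2 change ± SE of the single knockouts against WT and the double KO for RNA, footprints and footprints relative to RNA, for each scaffold gene (edgeR, all libraries). RNA values are below 0 for 8 genes and above 0 for Homer1, footprint values lie between -0.08 and 0.20, and the relative values have the opposite sign of the RNA values.

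Footprints relative to RNA, tested over all 16 libraries as the genotype effect that differs between assays, had a positive change in the single knockouts for 8 of the 9 genes, with a median log2 change of 0.43 against -0.02 for all genes. None was called in edgeR (2 of 13027 genes were, 0.0154%), while 8 of 9 had an unadjusted p under 0.05, beside 14.1% of all genes. The largest were Shank1 at 1.19 ± 0.28 (edgeR adjusted p = 0.151) and Shank3 at 1.05 ± 0.23 (edgeR adjusted p = 0.123), followed by Dlgap3 at 0.69 ± 0.17, and Homer1 was at -0.18 ± 0.17. These values and the TPM ratios below use the same RNA libraries, so they are no separate evidence beside the RNA comparison. Shank1, for example, was at -1.19 in RNA and -0.0029 in footprints. DESeq2 called 1 of the 9 (0.629% of all genes). In TPM ratios by library, all 4 single knockout libraries were above the other 4 for Dlg4, Shank1, Shank3, Dlgap2, Dlgap3 and Dlgap4, as they were for 7.06% of the 13009 genes with a ratio in every library. For Shank3 the ratio was 0.591 and 0.414 in the Fmr1 KO and 0.606 and 0.472 in the Cpeb1 KO, against 0.223 and 0.243 in WT and 0.177 and 0.354 in the double KO.

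The authors' deposited Xtail tables of translational efficiency also relate footprints to RNA in these libraries, so they are no separate evidence either. They called 8 of the 9 genes higher in the Fmr1 KO than in WT, all but Homer1, beside 2.96% of genes listed. They called 7 in the Cpeb1 KO, all but Dlgap1 and Homer1 (2.47%), and 0 in the double KO (0.152%). In the authors' deposited table for the Fmr1 KO the log2 change was 1.14 for Shank1, 0.89 for Shank3 and 0.41 for Dlg4. The protocols say that each lysate was divided between the assays, but choroid plexus markers did not match between RNA and footprint libraries of the same label. Their sum was 239 CPM in WT RNA library 2 and 28.6 CPM in WT footprint library 2, and 42.5 CPM in Cpeb1 KO RNA library 2 and 154 CPM in its footprint counterpart. Whether this bears on the relative values was not tested.

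In footprints, several scaffold genes were higher in the double KO than in WT without passing the threshold. All libraries of the double KO were above both of WT for 7 genes and below for Homer1, where 25.7% of all genes lie above and 26.7% below in this way. The log2 change was 0.37 ± 0.13 for Dlgap3 (edgeR adjusted p = 0.127), 0.35 ± 0.09 for Shank3 (edgeR adjusted p = 0.055), 0.34 ± 0.11 for Shank2 (edgeR adjusted p = 0.11), 0.29 ± 0.08 for Dlgap2 (edgeR adjusted p = 0.0609) and 0.24 ± 0.07 for Dlgap4 (edgeR adjusted p = 0.0825). The median was 0.24 for the 9 genes and 0.00 for all. With edgeR 0 of 9 were called, beside 2.65% of all genes, and 5 had an unadjusted p under 0.05 (21.0% of all genes). DESeq2 called 2 (3.51% of all genes), and the authors' deposited table called 4: Shank3 (0.30), Shank2 (0.29), Dlgap2 (0.26) and Dlgap4 (0.21), beside 4.9% of genes listed. Without WT library 1 edgeR called 4 of the 9 (9.57% of all genes), and Homer1 stood at -0.45, while without WT library 2 it called 1 (1.52%) and Homer1 stood at 0.17. In the same comparison 2 of 5 astrocyte markers, 1 of 5 oligodendrocyte markers and 1 of 5 microglia markers were called lower and 1 of 6 striatal markers higher in footprints, and their part in the scaffold values was not tested.

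The effect of Fmr1 loss averaged over both Cpeb1 genotypes compares 4 libraries with 4. In footprints it was positive for 8 of the 9 genes, all but Homer1, with a median log2 change of 0.17 against -0.01 for all genes. With edgeR 0 of 9 were called (0.922% of all genes), and 5 had an unadjusted p under 0.05 (19.1%). The largest values were 0.28 ± 0.08 for Shank2 (edgeR adjusted p = 0.093) and 0.22 ± 0.06 for Shank3 (edgeR adjusted p = 0.105). Only Dlgap4 had all 4 libraries without Fmr1 above all 4 with it, at 216 to 243 CPM against 198 to 211, which 3.54% of all genes share. Without WT library 1 the count called was 5 of 9, beside 8.44% of all genes, and DESeq2 called 2 (2.35%). In RNA the same effect ran from -0.13 to 0.24, with 0 called in edgeR (0.00753% of all genes) or DESeq2 and 0 at an unadjusted p under 0.05 (3.36%). The effect of Cpeb1 loss averaged in the same way ran from -0.03 to 0.07 in RNA (0.0% of all genes called) and from -0.02 to 0.18 in footprints (0.167%). For it edgeR and DESeq2 called 0 of 9 in either assay, with 0 and 2 genes at an unadjusted p under 0.05 (2.34% and 7.6% of all genes).

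The other pairs of genotypes gave no scaffold gene call in edgeR. In the footprints of the Fmr1 KO against WT the 9 changes ran from 0.00 to 0.21 and in the Cpeb1 KO against WT from -0.0048 for Shank2 to 0.18 for Homer1, where edgeR and DESeq2 called 0 of 9, with 1 and 0 genes at an unadjusted p under 0.05. Over all genes 0.0581% and 0.0799% were called, and 5.09% and 3.88% had an unadjusted p under 0.05. In footprints the double KO minus the Fmr1 KO ran from -0.22 to 0.27, with 0 of 9 called by either tool and 1 at an unadjusted p under 0.05, beside 0.334% and 15.9% of all genes. The double KO minus the Cpeb1 KO ran from -0.34 for Homer1 to 0.34 for Shank2, with 0 of 9 called in edgeR, 4 at an unadjusted p under 0.05 and 1 called in DESeq2, beside 5.6%, 24.6% and 6.03% of all genes. For footprints relative to RNA, 7 of 9 had an unadjusted p under 0.05 in the Fmr1 KO (7.8% of all genes) and 7 in the Cpeb1 KO (9.5%) against WT, and 0 were called by either tool (0.0154% and 0.0% of all genes). In the double KO against WT, and for the averaged effects of Fmr1 and of Cpeb1, 0 were called by either tool and 0 had an unadjusted p under 0.05. Over all genes 0.00768% were called in each, and 3.52%, 2.71% and 2.59% had an unadjusted p under 0.05.

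Homer1 is expressed as long forms and as a short form, Homer1a, that neuronal activity induces and that lacks the part that links Homer proteins to each other. Gene-level counts do not separate the forms, but the deposited feature length is an average over 4 counted Homer1 transcripts, weighted by their estimated abundance. In RNA it was 787 to 871 nt in the single knockouts and 879 to 981 nt in WT and the double KO. The groups did not overlap, and of 2882 tested genes with a length that varies, 47 were shorter in every single knockout library (1.63%). In footprints the lengths were 932 to 1006 nt and 954 to 1036 nt and overlapped. The summed RNA level of 11 other activity-regulated genes, such as Arc and Fos, was 491.4 to 819.9 CPM in the single knockouts and 405.1 to 950.0 in the other libraries, with 0 called.

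**Figure D5:**
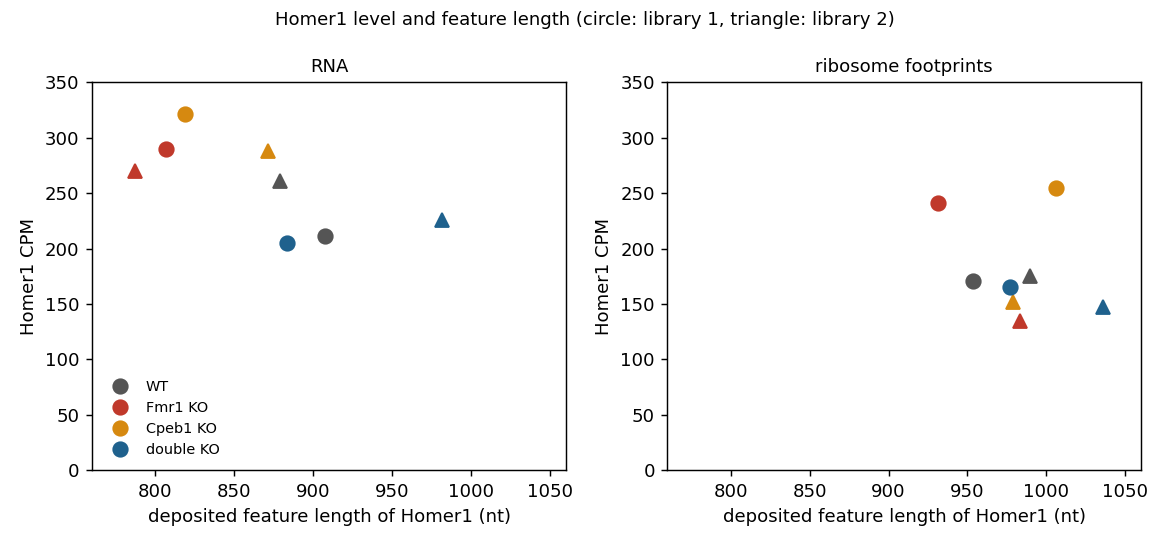
Homer1 level in CPM against the deposited, abundance-weighted feature length of Homer1 in nt, for the 8 RNA-seq libraries (left) and the 8 footprint libraries (right); colours are genotypes, circles library 1 and triangles library 2. In RNA the 4 single knockout libraries have both the shorter lengths (787 to 871 nt) and the higher levels (270 to 321 CPM), and in footprints the lengths overlap.

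Other genes of the postsynaptic density were taken from a list of binding partners and organisers for the RNA comparison of the single knockouts. Of 36 that bind or organise the scaffold, 3 were called lower and 0 higher in the single knockouts with edgeR. These were Agap2 (-0.63), a GTPase-activating protein, Iqsec2 (-0.58), an exchange factor for Arf GTPases, and Begain (-0.48), a PSD-95 binding protein. The median log2 change of the 36 was -0.08, against -0.44 for the 9 scaffold genes and 0.03 for all genes. Of the other PSD-95 family members, Dlg1, Dlg2 and Dlg3, 0 were called with edgeR, at 0.22, 0.01 and 0.05, with Dlg1 at an unadjusted p under 0.05. Homer2 (0.07) and Homer3 (-0.22) were not called. Of 11 presynaptic active zone genes only Rimbp2 was called (-0.40), with a median of -0.17.

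The genes most like the scaffold genes in pattern were found by Pearson's r with the mean of their centred log2 CPM over 16 libraries, among 10548 genes. They were Cmip at 0.989, Gm996 at 0.980, Agap1 at 0.975, Brsk1 at 0.972 and Wiz at 0.969. Their RNA changes in the single knockouts ran from -1.07 for Wiz to -0.37 for Cmip, with footprint changes of -0.14 to 0.00. Each of the 8 scaffold genes other than Homer1 had an r of 0.914 to 0.965 with the mean of the others, and Homer1 an r of -0.717. For these 8, other genes with a higher r numbered from 5 for Shank1 and Shank3 to 159 for Dlgap1.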

How the data were processed

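The members and all gene lists were chosen with earlier results of these data known. The authors deposited for each library a table with, per the file headers, RSEM's expected counts, TPM and an abundance-weighted feature length per gene. The submitters' processing notes name mm10, cutadapt, Bowtie2, TopHat2, RSEM and DESeq2, with no versions, and their order and settings are not given in the sources used here. The authors' deposited DESeq2 and Xtail tables give log2 changes, p-values and adjusted p-values.

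Expected counts were rounded and tested with edgeR 4.0.16 in R 4.3.3: TMM scaling, filterByExpr with a minimum count of 10, genotype plus replicate number in the design, the quasi-likelihood test, all 8 libraries of an assay, or all 16 for footprints relative to RNA, and Benjamini-Hochberg adjustment over all genes. Levels are CPM. Deposited TPM served for comparing genes and for the footprint to RNA ratio. The fits of each single knockout against WT, and of footprints relative to RNA in the Fmr1 KO, were tested on simulated data. The simulation covered neither the comparison of both single knockouts against the rest nor an effect of the replicate number. No library pair agreed within sampling noise.

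All 9 members were tested in every comparison, and for some only the range of their changes is given. Also named are Fmr1 and Cpeb1, up to 4 called genes with the largest change of the postsynaptic density list, and the 5 genes most like the members. Alternatives were no replicate number, DESeq2 1.42.0, other size factors, no filter, a length correction, fits of fewer genotypes or pooled groups, a block for the lysate, and leaving out each library.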

Additional observations from a re-analysis of the deposited data

Results flagged for a closer look

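For 5 genes the RNA effect of Fmr1 loss differed between libraries with and without Cpeb1 by label, by the test of the interaction itself (edgeR quasi-likelihood test, Benjamini-Hochberg adjusted). Losing Fmr1 changed Shank1 RNA by -1.11 on the log2 scale with Cpeb1 present and by 1.27 without it, with -1.19 for the single knockouts against the rest (edgeR adjusted p = 0.0405). The values were -0.81 and 1.28 for Shank3 (-1.05, edgeR adjusted p = 0.0405), -0.70 and 0.84 for Dlgap3 (-0.77, edgeR adjusted p = 0.0385), -0.60 and 0.69 for Shank2 (-0.65, edgeR adjusted p = 0.0436), and -0.41 and 0.46 for Dlg4 (-0.44, edgeR adjusted p = 0.0416). These are the 5 genes called in RNA, so they are no further evidence. Their direction was the same in both numbered sets of libraries.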

How the results depend on the processing

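In RNA, the count of scaffold genes called in the single knockouts against WT and the double KO, 5 of 9, depended on the fit. It was 0 without the replicate block (0 of 13287 genes, scaffold genes at edgeR adjusted p of 0.0587 to 0.245, beside 0.0385 to 0.113 with it), 8 in DESeq2, without the filter on low counts, after the length correction and with 2 pooled groups, 5 with RLE size factors, and 0 to 9 when 1 library was left out. Over all genes the count went from 274 to 531 in DESeq2, 767 without the filter, 1147 after the length correction, 971 with 2 pooled groups and 0 to 1350 with 1 library left out. The direction of each of the 9 genes was kept in all 14 alternatives, with Shank1 at -1.51 to -0.90, Dlgap3 at -0.94 to -0.61 and Homer1 at 0.29 to 0.46 on the log2 scale. No scaffold gene was called in any comparison without the replicate block.

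Equal replicate numbers did not show pairing. The deviations of equally numbered libraries correlated at -0.0446 to 0.293 in RNA, -0.0748 to 0.334 in footprints and 0.0129 to 0.173 between the assays. The labels do not say what a number shares, so the block is a term of the model and a loss of calls without it is not a smaller effect.

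Where 0 of 9 were called, alternatives called some, and the share of all genes called is given beside each. In RNA these were 5 in the Fmr1 KO against WT when only these genotypes were fitted (2.78%). In the Cpeb1 KO against WT they were 1 in DESeq2 (0.339%), 3 with only these genotypes (0.873%) and 0 to 7 with 1 library left out (1.01% for the 7). For the double KO against the Fmr1 KO they were 1 (0.248%), 4 (1.27%) and 0 to 4 (1.35% for the 4) in the same order. Against the Cpeb1 KO they were 3 in DESeq2 (1.6%), 3 without the filter (1.19%), 6 after the length correction (3.68%), 3 with only these genotypes (0.828%) and 0 to 8 with 1 library left out (2.66% for the 8). In footprints, the double KO against WT had 2 in DESeq2 (3.51%), 1 without the filter (3.19%), 2 after the length correction (3.21%) and 0 to 4 with 1 library left out (9.57% for the 4). The double KO against the Cpeb1 KO had 1 in DESeq2 (6.03%), 4 with only these genotypes (14.4%) and 0 to 3 with 1 library left out (14.4% for the 3), and the averaged effect of Fmr1 had 2 in DESeq2 (2.35%) and 0 to 5 (8.44% for the 5). Footprints relative to RNA in the single knockouts had 1 in DESeq2 (0.629%), 2 with a block for the lysate (0.576%) and 0 to 6 with 1 library of each assay left out (2.84% for the 6). The cause of these changes was not tested.

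Values of single genes were recomputed for 6 comparisons: RNA of each single knockout against WT and of both against the rest, footprints of the double KO against WT and for the averaged effect of Fmr1, and footprints relative to RNA of both single knockouts against the rest. In these the sign turned for Homer1 footprints: for the averaged effect of Fmr1 they ran from -0.287 without WT library 1 to 0.023 without WT library 2, and for the double KO against WT from -0.452 to 0.168, with 0.006 without double KO library 1. In these comparisons 664 alternative values kept direction and side of the threshold, 63 passed it newly, 35 no longer passed it and 3 turned sign. Each genotype has 2 libraries per assay, and this number limits the precision.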

Other observations

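Activity-regulated genes had a pattern of their own in footprints. In the double KO against WT, 8 of 11 were called higher with edgeR (2.65% of all genes were called, in either direction), with a median log2 change of 0.87, among them Arc at 1.00, Junb at 0.88 and Nr4a1 at 1.15. Arc, a synaptic protein induced by activity, had footprints at 160 and 249 CPM in WT and 390 and 410 in the double KO. Homer1, which has an activity-regulated form, had a footprint change of -0.16 in the same comparison, and Dynll2, a dynein light chain that binds the SAPAP family, was called lower at -0.38. For the averaged effect of Cpeb1 loss in footprints, 7 of the 11 activity-regulated genes were called higher (0.167% of all genes called). For that of Fmr1 loss 1 was (0.922%). In the Cpeb1 KO against WT all 11 were positive with 0 called (0.0799%), at a median of 0.57. Their summed footprints were 1068 CPM in WT library 1 and 1685 in WT library 2.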
